A study of Mus musculus with 2 samples.

Results

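Decorin (Dcn), biglycan (Bgn), asporin (Aspn), fibromodulin (Fmod), lumican (Lum), osteoglycin (Ogn), versican (Vcan), perlecan (Hspg2) and the hyaluronan synthases Has1 and Has2 were followed as a set of 10 genes that build the proteoglycan and hyaluronan part of the extracellular matrix. Membership is by gene name and uses no measured value, although the set was drawn up with earlier results of these data known. A gene was measured where at least 1 array row carried its symbol alone, and rows of the same symbol were averaged. In this way 8 of the 10 genes had values, out of 19122 genes with a symbol, and Vcan and Has2 had no row under their symbols. The samples were lungs of male C57BL/6 mice, an inbred strain in which chest irradiation leads to lung fibrosis. In the irradiated group the chest had received a single dose of gamma rays at 7 weeks of age, at 0.81 Gy/min, and lungs were taken after 25 weeks. The other group was nonirradiated lung of the same strain and sex, labelled with the same 25 weeks, and no genetic change or further agent was named for either group. Each group was 1 array hybridised from 300 ng of total RNA, and the total dose and the number of mice per array are not given in the sources used here.

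Proteoglycans are core proteins that carry sulphated sugar chains, the glycosaminoglycans. The small leucine-rich members (Dcn, Bgn, Aspn, Fmod, Lum, Ogn) bind fibrillar collagen and set the width and spacing of its fibrils, and several of them bind TGF-beta. Perlecan is a large heparan sulphate proteoglycan of basement membranes, versican a large chondroitin sulphate proteoglycan that binds hyaluronan, and the hyaluronan synthases are membrane enzymes that extrude this unsulphated sugar polymer. In lung, hyaluronan and versican are known from the provisional matrix laid down after injury.

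The measured genes of the set differed little between the arrays, except for Aspn, which was higher in the irradiated lung, and Has1, which was lower. Aspn was 1.68-fold higher and Has1 1.72-fold lower, whereas the other 6 measured genes lay between 1.19-fold lower (Hspg2) and 1.23-fold higher (Lum). Of the 8 genes, 6 were higher and 2 lower in the irradiated array, where 45.3% of all genes were higher. Past 1.5-fold there was 1 gene in each direction, beside a background of 2.07% of all 19122 genes at least 1.5-fold higher and 1.2% at least 1.5-fold lower, or 3.27% in either direction. No member reached 2-fold, as 0.413% of all genes did. At 1.2-fold, Aspn and Lum were higher and Has1 was lower, against 11.9% and 13.8% of all genes in these directions. The median log2 difference (irradiated minus nonirradiated) was 0.12 over the 8 genes and -0.02 over all genes. Because a group is a single array, no replicate error or test can be given, and each difference describes this pair of arrays. As measures of technical spread, the differences of 18 bacterial hybridisation control rows had an SD of 0.14 and ran from -0.33 to 0.17. Those of 39 poly-A spike rows had an SD of 0.31 and ran from -0.98 to 0.46, and those of 92 ERCC spike rows had an SD of 0.24 and ran from -0.77 to 0.61. The differences of 23 antigenomic background control rows had a median of -0.21 and an SD of 0.21, and ran from -0.59 to 0.09. In 637 genes with several main rows, the differences of the rows of a gene had a pooled SD of 0.25. The differences of Aspn and Has1 were larger than each of these SDs, but single spike rows differed by as much: the lowest poly-A row lay below Has1, and the lowest ERCC row differed by more than Aspn in size. The differences of the other 6 genes were all below the poly-A SD, and those of Dcn and Fmod were below every SD given. Every value is an RMA value, on a log2 scale. Levels of different rows are not comparable with each other, because each rests on other probes, and in whole lung RNA fewer cells of a type and less RNA per cell cannot be told apart.

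**Figure D1:**
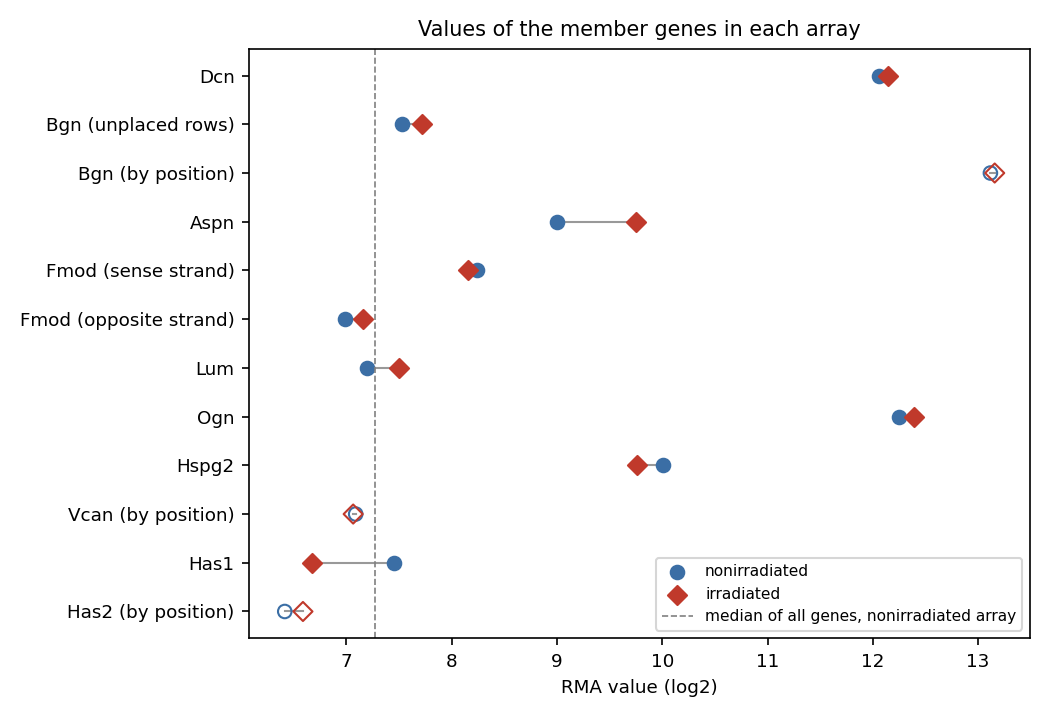
RMA values (log2, horizontal axis) of the rows of each member gene in the nonirradiated array (blue circles) and the irradiated array (red diamonds), 1 array each. Open symbols are rows without a gene symbol at the position of Bgn, Vcan and Has2, and the dashed line is the median of all genes in the nonirradiated array (7.27). The points are well apart for Aspn (9.00 and 9.75) and Has1 (7.45 and 6.67) and close together for the other rows.

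The library check was brief. The values of the arrays ran from 1.69 to 13.83 (nonirradiated) and from 1.51 to 13.78 (irradiated). Markers of lung epithelium were bright in both arrays, with Sftpc, the surfactant protein of alveolar type 2 cells, at 13.42 and 13.39. Of the 8 epithelial markers 7 were lower in the irradiated array, with a median difference of -0.17, among them Foxj1, a transcription factor of ciliated cells, at -0.55 and Sftpd, surfactant protein D, at -0.45. The same pair of arrays also differed in genes of other tissues: all 7 adipocyte and all 7 heart muscle markers were at least 1.5-fold higher in the irradiated array, with median differences of 1.29 and 0.84.

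Asporin is a small leucine-rich protein of the decorin class that, unlike its relatives, usually carries no glycosaminoglycan chain, and it binds collagen and TGF-beta. Its row on chromosome 13 (49544443 to 49567565, plus strand, GRCm38, 22 probes) read 9.00 without and 9.75 with irradiation, a difference of 0.75. Both values were above the array medians of 7.27 and 7.26, and 182 genes with a symbol had a larger positive difference. Among the 2494 genes whose mean level lay within 0.5 of that of Aspn, the central 95% of differences ran from -0.49 to 0.38.

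The hyaluronan synthase Has1 stood at the other end. Its row on chromosome 17 (17843326 to 17855188, minus strand, GRCm38, 22 probes) read 7.45 without and 6.67 with irradiation, a difference of -0.78, and 54 genes had a larger negative one. The lower value lies below the array median and within the central range of the 5331 intron control rows of that array, whose quartiles were 5.50 and 7.51, so the size of the difference from this dim value is uncertain. Among the 3239 genes within 0.5 of the mean level of Has1, the central 95% of differences ran from -0.46 to 0.57. Has1 reached the array median only through the nonirradiated array and Lum only through the irradiated one, while the other 6 genes did so in both.

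**Figure D2:**
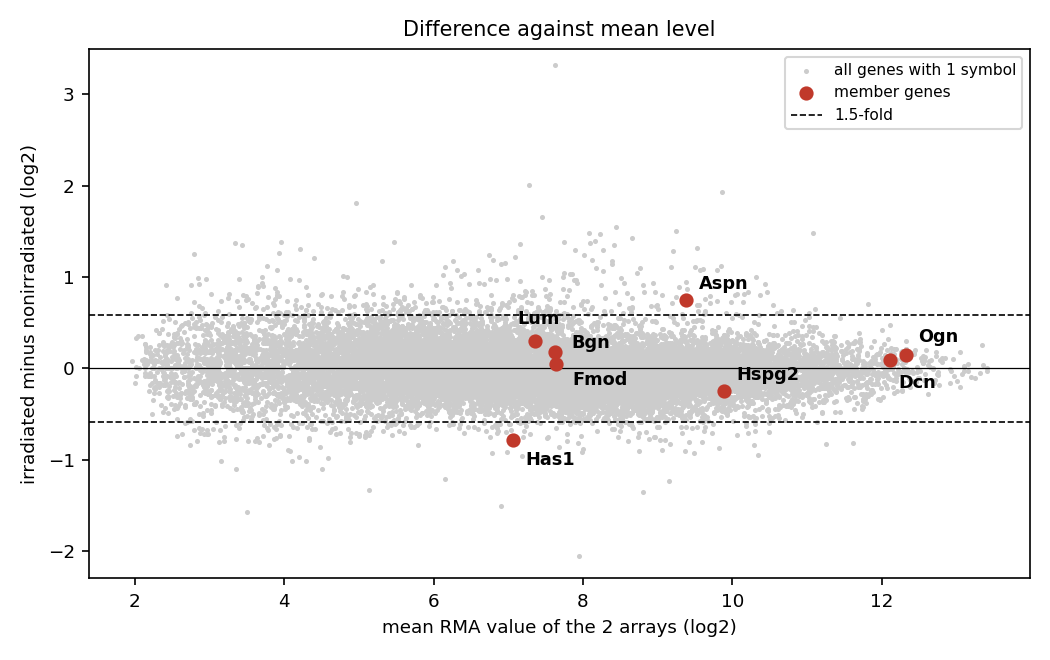
Irradiated minus nonirradiated difference (log2, vertical axis) against the mean RMA value of the 2 arrays (log2, horizontal axis) for 19122 genes in grey and the 8 measured member genes in red. Dashed lines mark 1.5-fold: Aspn (0.75) lies above the upper line, Has1 (-0.78) below the lower line, and the other members between them.

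The promoter sequences of the genes past 1.5-fold, Aspn and Has1, are given here with that of Ogn, a chromosome 13 neighbour of Aspn that differed by 0.15. They run from 250 bases before to 50 bases after the transcription start, 5′ to 3′ on the strand of the gene, from RefSeq (GRCm38.p6): chr13:49544193-49544492 (plus) for Aspn, chr13:49607765-49608064 (plus) for Ogn and chr17:17855139-17855438 (minus) for Has1. Of the 10 genes, 7 had a promoter entry. Capitals mark matches on either strand to any of 5 motifs: the cyclic AMP response element TGACGTCA, the AP-1 element TGANTCA, the TATA box TATAAA, the GC box GGGCGG and the CCAAT box CCAAT.
Aspn: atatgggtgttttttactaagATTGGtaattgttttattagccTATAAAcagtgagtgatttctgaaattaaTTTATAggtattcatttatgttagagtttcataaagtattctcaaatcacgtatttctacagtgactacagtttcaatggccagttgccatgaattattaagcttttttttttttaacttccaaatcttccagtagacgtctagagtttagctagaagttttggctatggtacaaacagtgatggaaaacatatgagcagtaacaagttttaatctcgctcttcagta
Ogn: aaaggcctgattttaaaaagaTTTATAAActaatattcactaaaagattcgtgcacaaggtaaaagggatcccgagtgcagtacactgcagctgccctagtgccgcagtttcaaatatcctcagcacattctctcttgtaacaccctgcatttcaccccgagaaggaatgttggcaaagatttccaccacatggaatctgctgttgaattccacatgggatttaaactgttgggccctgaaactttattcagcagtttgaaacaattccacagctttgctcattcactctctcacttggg
Has1: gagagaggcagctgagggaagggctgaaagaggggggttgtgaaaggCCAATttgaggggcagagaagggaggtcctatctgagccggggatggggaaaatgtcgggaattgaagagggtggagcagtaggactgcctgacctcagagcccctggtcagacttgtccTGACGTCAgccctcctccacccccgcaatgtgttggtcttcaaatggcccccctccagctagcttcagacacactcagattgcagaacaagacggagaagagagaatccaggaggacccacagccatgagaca
The Has1 window held a cyclic AMP response element 83 bases before the start and a CCAAT box. The same element is found in 1.79% of all 32851 promoter windows of this length and the CCAAT box in 37.4%. The Aspn window held a CCAAT box and TATA box letters at 2 places, and the Ogn window held TATA box letters on both strands, overlapping by 4 bases. These letters occur in 13.6% of the windows. Neither the AP-1 element (7.81% of windows) nor the GC box (35.7%) was in the 3 windows. The share of G and C was 31.0% in Aspn, 42.3% in Ogn and 57.0% in Has1, with a median of 52.7% over all windows. A match describes the letters only, and factor binding was not measured in this study.

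The close relatives of asporin were nearly level. Decorin binds collagen type I and sequesters TGF-beta. Its row on chromosome 10 (97479500 to 97518162, plus strand) read 12.06 and 12.15, a difference of 0.09. Biglycan, which carries a pair of chondroitin or dermatan sulphate chains and also signals to innate immune receptors, was represented under its symbol by 2 rows with identical values, 7.53 and 7.71, a difference of 0.18. Those 2 rows are annotated as cross-hybridising, belong to the probe category rescue and lie on unplaced contigs from base 1 to 472, not at the biglycan gene. At the gene itself, on chromosome X, a row without a symbol (73483602 to 73496397, plus strand, 18 probes) lacks only the first base of the RefSeq span of Bgn and read 13.12 and 13.16, a difference of 0.04. This row is annotated only as a noncoding transcript. By either reading biglycan differed by less than 1.2-fold.

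Fibromodulin and lumican compete for the same region of collagen and take part in early and late fibril growth. Lum on chromosome 10 (97565501 to 97572703, plus strand, 25 probes) read 7.20 without and 7.50 with irradiation, a difference of 0.30 from a value just below the array median. Both values lie within the quartiles of the intron control rows of their arrays (5.23 to 7.26 and 5.50 to 7.51), so the size of this difference is uncertain too. The median of the intron control rows was itself higher in the irradiated array, at 6.33 without and 6.58 with irradiation. Fmod was covered by 2 rows on opposite strands of chromosome 1. The row on the strand of the gene (134037254 to 134048277, plus) read 8.24 and 8.16, a difference of -0.08. The row on the other strand (134037316 to 134040824, minus) read 6.99 and 7.16, a difference of 0.17. Their average, 7.61 and 7.66, gave the difference of 0.05 counted above as higher, so the direction of Fmod depends on the row used. Osteoglycin, also called mimecan, is a leucine-rich protein that influences fibril width and is found in the heart and vessel wall as well as in bone. Its row on chromosome 13 (49608071 to 49624500, plus strand) read 12.24 and 12.39, a difference of 0.15.

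Several of these genes lie in short groups of related genes, and neighbours could be set beside each other. On chromosome 13 the order is Ecm2, Aspn, Omd and Ogn within 120 kb. Ecm2, a matrix protein with leucine-rich repeats, differed by -0.06 (9.27 and 9.21), and Omd, osteomodulin, by 0.15 (7.47 and 7.62). Aspn was thus the gene past 1.5-fold in this group, between neighbours that differed by at most 0.15. On chromosome 10 the order is Dcn, Lum, Kera and Epyc within 202 kb. Kera, keratocan of the cornea, read 5.76 in both arrays, and Epyc, epiphycan of cartilage, read 5.59 and 5.89, both far below the array medians. On chromosome 1, Optc and Prelp lie near Fmod within 151 kb. Prelp, which anchors basement membranes to collagen, read 12.35 and 12.52, a difference of 0.17, and Optc, opticin of the eye, read 6.36 and 6.64.

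**Figure D3:**
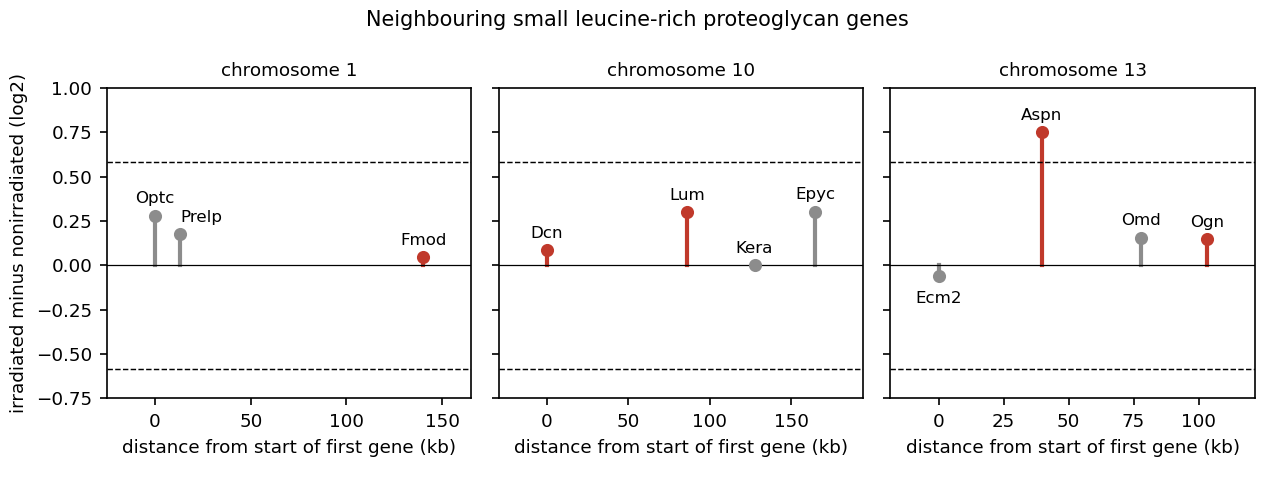
Irradiated minus nonirradiated difference (log2, vertical axis) of small leucine-rich proteoglycan genes by the distance of their start from the first gene of the group (kb, horizontal axis), on 3 chromosomes. Members are red and other genes grey, and dashed lines mark 1.5-fold. Aspn on chromosome 13 stands above the line, while Ecm2, Omd and Ogn lie between -0.06 and 0.15.

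Of 17 small leucine-rich proteoglycan genes listed for this comparison, 16 had a symbol row. In this list 11 were higher, 4 lower and 1 equal in the irradiated array, where 45.3% of all genes were higher. The median difference was 0.15, and Aspn was the gene past 1.5-fold. Some of the genes counted as higher, such as Epyc and Optc, were below the array median in both arrays. Bgn and Fmod are also counted as higher, with the limits of their rows given above. The lower genes included Chad, the cell-binding protein chondroadherin of cartilage, which was 1.39-fold lower (11.61 and 11.13). Podn, podocan, differed by -0.34 and Tsku, tsukushi, a secreted modulator of several signalling pathways, by -0.34. Cartilage markers did not share a direction, with 5 of 11 higher, 6 lower, none past 1.5-fold and a median of -0.01.

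The large proteoglycans did not share a direction. Perlecan crosslinks laminin and collagen IV networks and binds growth factors through its heparan sulphate chains. Hspg2 on chromosome 4 (137468719 to 137570630, plus strand, 82 probes) read 10.01 without and 9.76 with irradiation, a difference of -0.25, and was 1.19-fold lower. Of the other basement membrane proteoglycans, Agrn, agrin, differed by -0.35 (10.17 and 9.82) and Col18a1, the core of collagen XVIII, by 0.15 (7.57 and 7.72). Versican had no row under its symbol. A row without a symbol on chromosome 13 (89655310 to 89742512, minus strand, 34 probes), which covers 99.4% of the RefSeq span of Vcan, read 7.09 and 7.06, a difference of -0.02. The other aggregating proteoglycans and the link proteins had values from 5.67 to 6.91 in the nonirradiated array, and 4 of 7 were higher, 3 lower and none past 1.5-fold. Acan, aggrecan of cartilage, read 6.21 and 6.48, a difference of 0.27.

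Has2, the main hyaluronan synthase of fibroblasts in the adult and of the embryonic heart, likewise had no row under its symbol. A row without a symbol on chromosome 15 (56665627 to 56694546, minus strand, 21 probes) has exactly the RefSeq span of Has2 and read 6.41 and 6.59, a difference of 0.17. Has3, the remaining synthase, read 6.82 and 6.62, a difference of -0.19. All 3 synthases were thus below the array median in the irradiated array, and Has1 was the synthase that reached the median in the nonirradiated array.

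The remaining pathway genes showed no shared change. Of 111 measured genes for proteoglycan cores, glycosaminoglycan assembly, sulphation, hyaluronan supply, breakdown and binding, outside the members, 48 were higher, 62 lower and none past 1.5-fold, against 3.27% of all genes, with a median difference of -0.04. At 1.2-fold, 12 were higher and 19 lower, together 27.9% beside 25.7% of all genes. Enzymes that supply hyaluronan precursors were lower in 5 of 6 cases, where 53.1% of all genes were lower, and their median difference was -0.11. Gfpt1, the entry enzyme of the hexosamine pathway, differed by -0.23, Hk2 by -0.19 and Pgm3 by -0.18, whereas Uap1 and Ugp2 differed by -0.04 and -0.004. Among genes of hyaluronan breakdown, the hyaluronidase Hyal3 differed by -0.29, and Hexa, a lysosomal glycosidase subunit, by -0.23. Among hyaluronan receptors and binding proteins, Itih5, a heavy chain of the inter-alpha-inhibitor family that binds hyaluronan, was 1.46-fold higher (7.32 and 7.87). Itih4 of the same family differed by -0.28, and Lyve1, the hyaluronan receptor of lymphatic vessels, by 0.25.

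Enzymes of glycosaminoglycan assembly did not all share a direction, though more were lower than higher. All 4 measured linker enzymes were lower, as were 9 of 15 chondroitin and dermatan sulphate enzymes and 12 of 19 heparan sulphate enzymes. Over all genes 53.1% were lower. B4galt7, which adds the first galactose of the linker to the core protein, was 1.40-fold lower (8.05 and 7.56), while the linker genes Xylt2 and Fam20b differed by -0.06 and -0.04. For chondroitin and dermatan sulphate, Ust, which sulphates uronic acid, was 1.42-fold higher (7.93 and 8.44), Csgalnact2, which starts the chain, 1.35-fold lower (10.05 and 9.62), and Chst13 differed by -0.31. For heparan sulphate, Hs2st1, the 2-O-sulphotransferase, was 1.43-fold lower (10.65 and 10.13), Ndst1, which deacetylates and sulphates the chain, 1.26-fold lower, and Extl3 differed by 0.27. Cell surface proteoglycans included Sdc1 and Sdc4, the syndecans 1 and 4, at -0.37 and -0.33, and the secreted Spock2, testican 2, at -0.39, whereas the list median was 0.01. Among proteases that cleave versican and its relatives, Adamts9 differed by 0.32, Adamts5 by -0.06 and Adamts1 by 0.02.

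**Figure D4:**
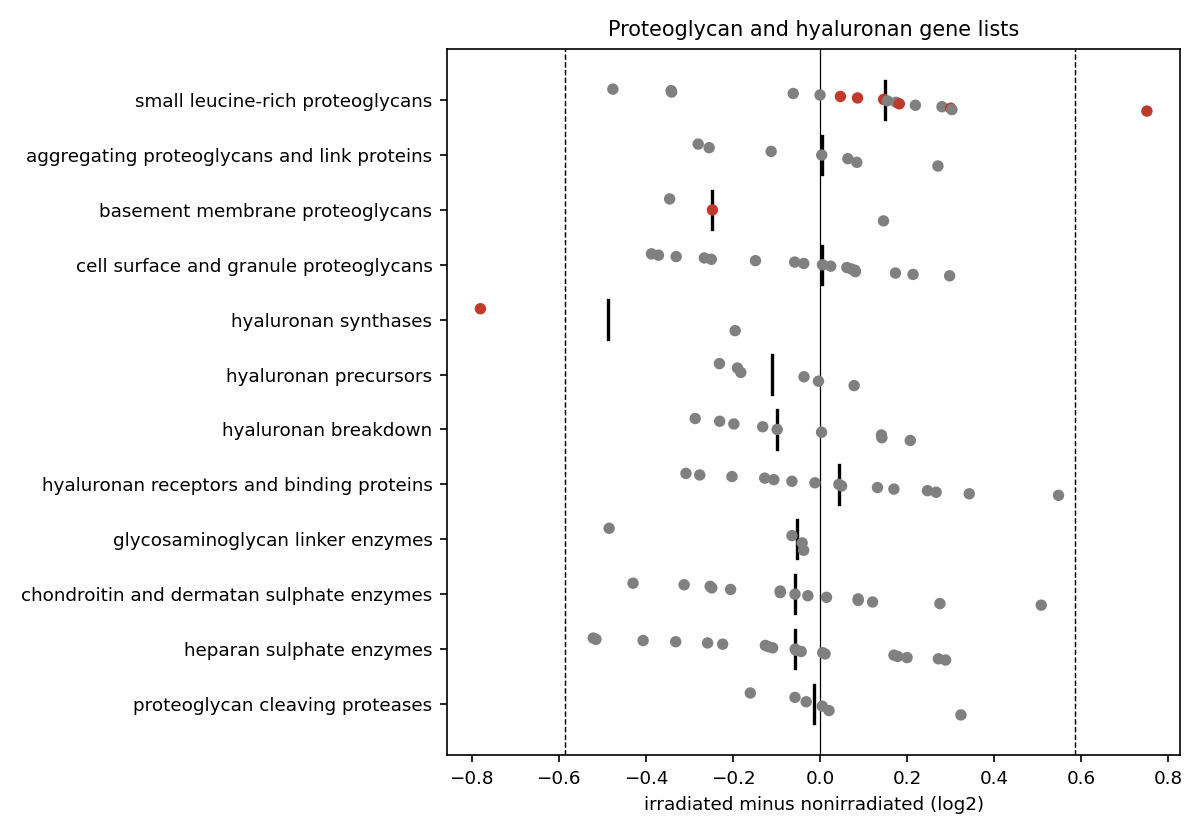
Irradiated minus nonirradiated difference (log2, horizontal axis) of every measured gene in 12 lists of the proteoglycan and hyaluronan pathways. Each point is a gene, members are red, black bars are list medians and dashed lines mark 1.5-fold. The points outside the lines are Aspn and Has1.

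Marker levels of several cell types were set beside the 2 differences. Which cell types expressed Aspn or Has1 in these lungs was not measured. Mesothelial cells, which cover the lung and secrete hyaluronan, had 5 measured markers, and all 5 were lower in the irradiated array, 3 of them past 1.5-fold, as was Has1. Msln, mesothelin, read 10.26 and 9.38, and Muc16, a mucin of mesothelial surfaces, 8.10 and 7.24. The log2 of the summed mesothelial marker signal was 12.19 and 11.71, a difference of -0.49 beside that of -0.78 in Has1. A summed signal is weighted to the brightest row of a list, here Upk1b (10.88 and 10.69). The median difference of the mesothelial markers was -0.69. All 7 smooth muscle and myofibroblast markers were higher, 4 of them past 1.5-fold, as was Aspn, with Cnn1, the smooth muscle calponin, at 8.86 and 10.18 and Actg2, the gamma actin of smooth muscle, at 8.01 and 8.84. This list holds Acta2, whose protein was used in the study to assess fibrosis, so it is not independent evidence of its own direction. Its summed signal was 12.22 and 12.92, a difference of 0.70, and is weighted to Acta2 (10.78 and 11.42). The differences of the single markers ran from 0.35 to 1.31, beside that of 0.75 in Aspn. As levels of different rows are not comparable, no likeness to Aspn is read from the sum. The heart muscle markers had summed signals of 12.42 and 13.34, a difference of 0.92. Those of the adipocyte markers were 11.26 and 12.65, a difference of 1.40. In both of these lists all 7 markers were past 1.5-fold in the direction of Aspn, so the higher smooth muscle signal was not particular to that list. In contrast, the 8 fibroblast markers had summed signals of 14.05 and 14.09 and a median difference of 0.08, with Mfap5, a microfibril protein of fibroblasts, at 0.27 and Dpt, dermatopontin, which binds decorin, at 0.14. No marker is listed at 0, since RMA gives every row a positive value. The part that any of these cell types had in the differences of Aspn and Has1 was not tested.

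**Figure D5:**
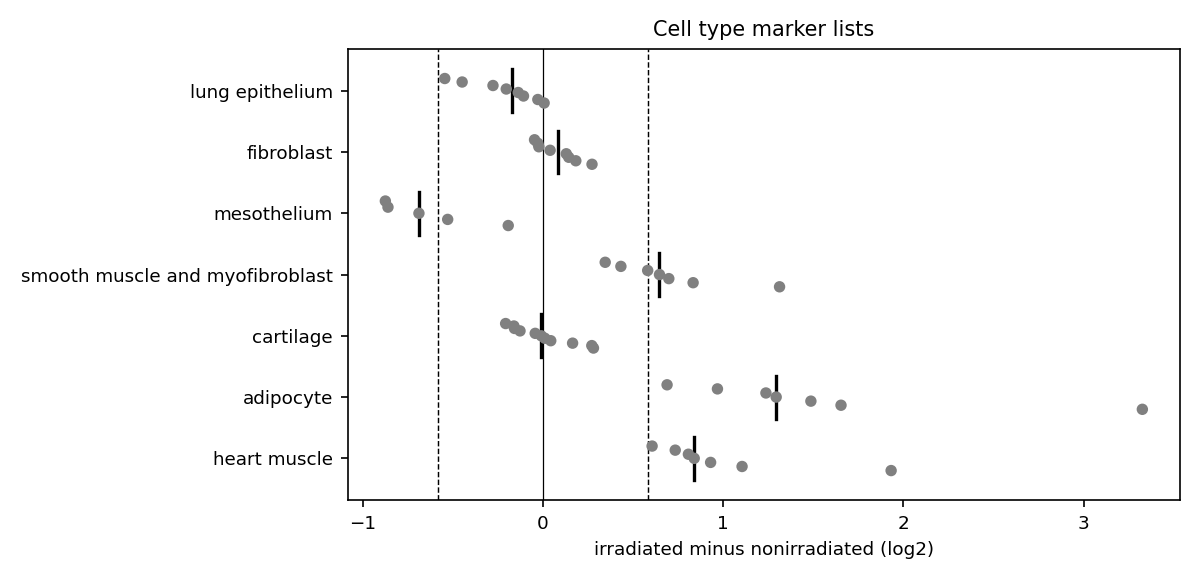
Irradiated minus nonirradiated difference (log2, horizontal axis) of cell type markers in 7 lists. Each point is a gene, black bars are list medians and dashed lines mark 1.5-fold. All 5 mesothelial markers and 7 of 8 lung epithelial markers lie below 0, the smooth muscle, adipocyte and heart muscle markers above 0, and the fibroblast and cartilage markers close to 0.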

How the data were processed

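Lung RNA of 1 nonirradiated and 1 irradiated group was measured on 1 Affymetrix gene-level array each. Per the submitters' processing notes, the authors ran RMA in Affymetrix Expression Console 1.3.1, and the deposited values are log2. RMA usually gives the arrays a common distribution, which hides any shift that most genes share. The authors' deposited workbook adds a log2 ratio, equal to the irradiated minus the nonirradiated value, and an absolute fold, a ratio without direction. Coordinates are on GRCm38, per the deposited annotation.

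Of 41345 rows, 6980 array controls were left out, and the 20339 rows with 1 symbol were averaged per symbol, giving 19122 genes. Differences and folds were computed with Python 3.11.15 and pandas 2.3.3. Rows without a symbol were assigned to a gene by position only where row and RefSeq span covered each other by at least 90%, and are reported apart from the symbol rows. The row also had to match the strand of the gene where that was known, and to be the single such row. Of main rows with a symbol known to RefSeq, 77.2% met the 90% overlap with the span of that symbol. This share was taken without the strand and single-row conditions, and 99.0% of these rows lay on the chromosome of their symbol. Local backgrounds used a window of 0.5 on the mean log2 value.

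Members, gene lists and the 1.5-fold limit were chosen with earlier results of these data known. The named genes were the 10 members, their leucine-rich neighbours, and up to 3 genes of each pathway list and 2 of each marker list with the largest absolute difference among genes reaching the array median. A gene that the rule names is not reported here. Has3, Acan, Uap1, Ugp2 and Sftpc are named outside the rule, with their values known. With 1 array per group, p-values were not computed. The trend removal and the counts were tested on simulated data.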

Additional observations from a re-analysis of the deposited data

How the results depend on the processing

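No paired analysis was possible because each group has 1 array, and for the same reason no array could be left out. Aspn and Has1 stayed past 1.5-fold under median centring and lowess trend removal with span 0.3. Their log2 differences ran from 0.71 to 0.81 and from -0.82 to -0.76. Further alternatives were the brightest row per symbol, cross-hybridising rows left out and the series value table. Rows named by position and the sense row of Fmod were chosen after seeing the data. These alternatives are no check on Aspn and Has1. Each rests on 1 row not annotated as cross-hybridising, and the series value table holds the same values. Without cross-hybridising rows Bgn had no value. Of the other members, Fmod ranged from -0.08 to 0.09 and Bgn from 0.04 to 0.23. Among genes reaching the 75th percentile of an array, 4 members were left and 1 was past the limit, since Has1 is too dim. With a 2-fold limit 0 members were past it, and 0.413% of all genes were. The pathway genes other than members past the limit numbered 1 (Itih5, 0.59) with the trend removed and 31 at 1.2-fold. The median of all genes was -0.02, and -0.06 after median centring. The number of arrays limits the precision.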

Other observations

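Rows on the strand opposite to a member, or on rows annotated as noncoding beside it, gave further values. On chromosome 17, a row without a symbol (17830719 to 17843009, plus strand, 28 probes) ends just short of the Has1 row and overlaps the RefSeq span of Has1 on the other strand. It read 8.72 without and 9.10 with irradiation, a difference of 0.38, opposite in direction to Has1. On chromosome 15, a noncoding row on the plus strand (56689944 to 56778399) read 5.74 and 5.85. It overlaps the Has2 span at its higher coordinates, the 5′ side of the minus-strand row read for Has2. On chromosome X, a row on the minus strand within the Bgn span (73483601 to 73491032) read 9.35 and 9.42, a difference of 0.07. On chromosome 13, Cenpp, a centromere protein gene whose span on the minus strand takes in Aspn and Ogn, read 5.49 in both arrays.

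Genes of the pathway lists without a symbol row could in part be read by position. The row at Sulf1, an extracellular sulphatase that trims heparan sulphate, read 10.29 and 9.76, and was 1.44-fold lower in the irradiated array. The row at B3gat3, which completes the glycosaminoglycan linker, differed by -0.32 (8.88 and 8.56), and that at Chpf2, a chondroitin polymerising factor, by -0.32 (8.10 and 7.78). The row at Ugdh, which makes the glucuronic acid donor of hyaluronan, differed by -0.18. That at Gfpt2, of the same list of hyaluronan precursor enzymes, differed by 0.13. The row at Hyal1, the lysosomal hyaluronidase, differed by 0.16. Among marker genes read by position, Upk3b, a mesothelial membrane protein, was 1.61-fold lower (11.25 and 10.56) and Wt1, a mesothelial transcription factor, differed by -0.37. The fibroblast markers Col3a1 and Fbln1 differed by 0.04 and 0.11. These genes were chosen after their values were seen.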
